A study of Mus musculus with 18 samples.

Results

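The granzyme and chymase cluster is a row of neighbouring serine protease genes on mouse chromosome 14. It was followed here through the 8 genes Gzmb, Gzmc, Gzmd, Gzme, Gzmf, Gzmg, Gzmn and Cma1, taken by their symbols out of 55487 gene identifiers in the count table. In the GENCODE annotation of the mouse genome build GRCm38 (the build also called mm10) all 8 are protein-coding genes on the minus strand. They lie between positions 55941451 and 56262260, a span of 321 kb, and the 7 granzyme genes fill the last 145 kb of it. Gzmb (chr14:56258838-56262260) stands at the right end with Gzmc (chr14:56231441-56234656) beside it, and Cma1 (chr14:55941451-55944675) stands at the left end. Gzmf, Gzmn, Gzmg, Gzmd and Gzme follow Gzmc in that order towards Cma1, and each member has 5 exons but Gzmn, which has 6. The study sorted YFP-positive natural killer (NK) cells from the spleen and made 18 RNA libraries, 3 for each of 6 groups. The wild-type groups came from Rosa YFP/YFP Ncr1 CRE-ERT2 mice, in which a tamoxifen-activated Cre recombinase is driven from Ncr1, a gene of NK cells and a few related lymphocytes. The knock-out groups came from mice of that genotype that were also Acly fl/fl and so lose Acly in those cells, the gene of the enzyme that makes cytosolic acetyl-CoA from citrate. Both genotypes received the tamoxifen diet for 48 hours and were used 5 days after its end, so the control cells carry the Cre, the YFP reporter and the drug exposure too. Each genotype was taken in 3 states. Cells were fresh, or primed for 72 hours in IL-15 (100 ng/ml), or primed in the same way, washed and then held for 6 hours on a plate coated with an NKG2D stimulus at 20 ug/ml. The series title concerns how acetylation that depends on ACLY bears on what NK cells can do, and the comparisons below ask where the protease cluster stood in each state and genotype.

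Granzymes are serine proteases that killer lymphocytes store in granules and release, with the pore-forming protein perforin, onto a target cell. Granzyme B, the product of Gzmb, cuts caspases and other proteins after aspartate and starts apoptosis in the target. Gzmc to Gzmg and Gzmn arose from the same ancestor by gene duplication in rodents, and killer cells are known to switch on several of them under strong cytokine stimulation. Cma1 encodes mast cell protease 5, a chymase best known from connective tissue mast cells, and the genes between it and Gzme include further mast cell and basophil proteases.

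The upstream sequences show which of the neighbours are copies of each other. The 130 bases before the annotated start are printed below for the 7 genes with measurable expression, each 5′ to 3′ on the minus strand, from RefSeq's promoter windows on GRCm38.p6, which matched all 8 symbols. Each sequence stops before the first start site given by RefSeq or GENCODE. Capitals mark every RUNX core (TGTGGT), every AP-1 core (TGANTCA), and in 5 genes the place of the cAMP response element (CRE, TGACGTCA).
Gzmb (chr14:56262335-56262464): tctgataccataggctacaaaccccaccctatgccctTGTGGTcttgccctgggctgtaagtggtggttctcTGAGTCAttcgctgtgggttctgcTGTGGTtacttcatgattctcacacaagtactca
Gzmc (chr14:56234658-56234787): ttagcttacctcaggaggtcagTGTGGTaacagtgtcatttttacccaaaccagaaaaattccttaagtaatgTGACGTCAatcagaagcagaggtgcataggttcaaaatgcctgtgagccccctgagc
Gzmf (chr14:56211418-56211547): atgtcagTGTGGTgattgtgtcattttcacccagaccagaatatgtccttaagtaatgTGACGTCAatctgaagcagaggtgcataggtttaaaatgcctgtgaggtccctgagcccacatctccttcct
Gzmg (chr14:56159580-56159709): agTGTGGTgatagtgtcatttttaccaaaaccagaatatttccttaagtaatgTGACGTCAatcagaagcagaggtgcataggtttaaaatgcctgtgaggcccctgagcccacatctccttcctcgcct
Gzmd (chr14:56132609-56132738): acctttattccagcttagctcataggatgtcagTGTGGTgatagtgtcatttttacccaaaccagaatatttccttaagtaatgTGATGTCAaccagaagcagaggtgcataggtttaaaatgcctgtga
Gzme (chr14:56120626-56120755): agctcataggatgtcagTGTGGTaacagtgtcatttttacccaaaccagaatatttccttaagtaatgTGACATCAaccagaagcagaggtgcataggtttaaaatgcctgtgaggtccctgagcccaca
Cma1 (chr14:55944676-55944805): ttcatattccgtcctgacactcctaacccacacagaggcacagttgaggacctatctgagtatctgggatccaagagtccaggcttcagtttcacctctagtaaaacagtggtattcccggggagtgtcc

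Gzmc, Gzmd, Gzme, Gzmf and Gzmg held the same runs of 16 bases (tccttaagtaatgtga) and 20 bases (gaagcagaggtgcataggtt), and the CRE place begins with the last 3 bases of the first run. The full CRE letters stood in Gzmc, Gzmf and Gzmg. Counted from 1 at the first base of the element, Gzmd carried C4T and Gzme carried G5A. Over the whole windows of 300 bases, the 5 promoters were between 86.1% and 94.0% identical by pairwise alignment. Of all 32851 promoter windows of this length, searched on both strands, 1.79% held the CRE letters, 16.8% the RUNX letters and 7.81% the AP-1 letters. The RUNX letters stood in 7 of the 8 members' windows, Gzmn being the exception, and the AP-1 letters in Gzmb alone. In Cma1 the RUNX letters lay downstream of the start. STAT letters (TTCNNNGAA), held by 8.30% of all windows, stood in Gzmb alone. They lay downstream of its RefSeq start but upstream of its GENCODE start. T-box (GGTGTGA) and E-box (CACGTG) letters stood in none of the 8, against 3.98% and 7.15% of all windows. The TATA box letters (TATAAA) stood only in Gzmn, against 13.6% of all windows. These matches describe letters and do not show that a factor was bound.

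The transcripts grouped differently from the promoters. Gzmd and Gzme were 94.8% identical along their aligned bases. Gzmn, whose promoter window aligned with none of the 5 over enough bases to give an identity, was 83.0% to 84.4% identical to Gzmd, Gzme, Gzmf and Gzmg. Gzmc was 76.1% to 77.1% identical to those 4 and 77.6% to Gzmb. Of all stretches of 50 bases, 21.7% in Gzmd, 20.6% in Gzme, 19.8% in Gzmg, 7.36% in Gzmf, 5.74% in Gzmn and 4.14% in Gzmc also stood in another member. In Gzmb and Cma1, 0% did. A read from a shared stretch cannot be given to a gene with certainty. Levels of Gzmd, Gzme, Gzmf and Gzmg are therefore uncertain singly, and their sum is given too. That sum still depends on reads divided from Gzmc, which shared 32 such stretches with Gzme, 21 with Gzmg and 3 with Gzmd. The antisense gene Gm4022 on the plus strand overlaps Gzmf over 2473 bases and Gzmn over 849 bases. The strand setting of the counting is unknown here, so reads of the 2 strands cannot be told apart there.

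The 18 libraries held between 14772350 and 34367582 reads assigned to genes. The lowest total belonged to replicate 1 of the primed knock-out cells, which stood apart with 14698 genes detected, against 17885 to 19672 in the other libraries. Acly was lower in the knock-out libraries, at 15.3 to 48.9 CPM (counts scaled to library size, as the usual normalised read count), than in the wild-type ones, at 128 to 280 CPM (279.6 at the highest). In fresh cells it was at 15.3 to 25.5 CPM in knock-out and 232 to 265 CPM in wild type. The same ranges were 38.1 to 48.9 and 227 to 280 CPM when primed, and 28.2 to 41.9 and 128 to 193 CPM after NKG2D. The Acly left in knock-out cells was thus lowest in fresh cells. The 9 NK cell markers Ncr1, Klrb1c, Klrk1, Nkg7, Prf1, Il2rb, Eomes, Tbx21 and Klre1 were present in every group, and their summed level was 15831 to 20192 CPM in fresh, 10022 to 12563 in primed and 5766 to 7946 in NKG2D-stimulated libraries. The 8 T cell markers summed to between 26.8 and 89.0 CPM in any library. The 6 markers of type 1 innate lymphoid cells (ILC1) summed to 50.1 to 218 CPM in fresh and 127 to 265 CPM in primed wild-type libraries. In knock-out these sums were 88.6 to 147 and 160 to 203 CPM. With priming in wild type, 3 of the 6 were called higher and 1 lower, where 53.7% of all tested genes were called. Between primed genotypes 0 were called, where 15.5% of all tested genes were. The part of ILC1 in the granzyme differences was not tested. Because these are bulk samples, fewer cells of a type and less RNA per cell cannot be told apart.

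In fresh NK cells the cluster was active at both ends only. Gzmb and Cma1 were high, Gzmc was barely present, and Gzmd to Gzmg stood at or near 0. Gzmb, the main granzyme gene of the cluster, was at 1254, 1209.9 and 1275 CPM in wild-type libraries and at 889, 1373 and 1048 CPM in knock-out libraries. Cma1 was at 468, 405 and 411 CPM in wild type and at 373, 549.5 and 354 CPM in knock-out. For both genes the libraries of the genotypes were intermixed. Gzmc was at 4.57, 1.55 and 1.47 CPM in wild type and at 3.36, 3.90 and 1.89 CPM in knock-out, again intermixed. Gzmd had 1 read over all wild-type libraries and 4 reads over all knock-out libraries. Gzmf had 1 read in 1 knock-out library, and Gzme and Gzmg had 0 in all 6. A count of 0 allows up to 0.0930 to 0.157 CPM in these 6 libraries, a limit that covers counting error only.

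**Figure D1:**
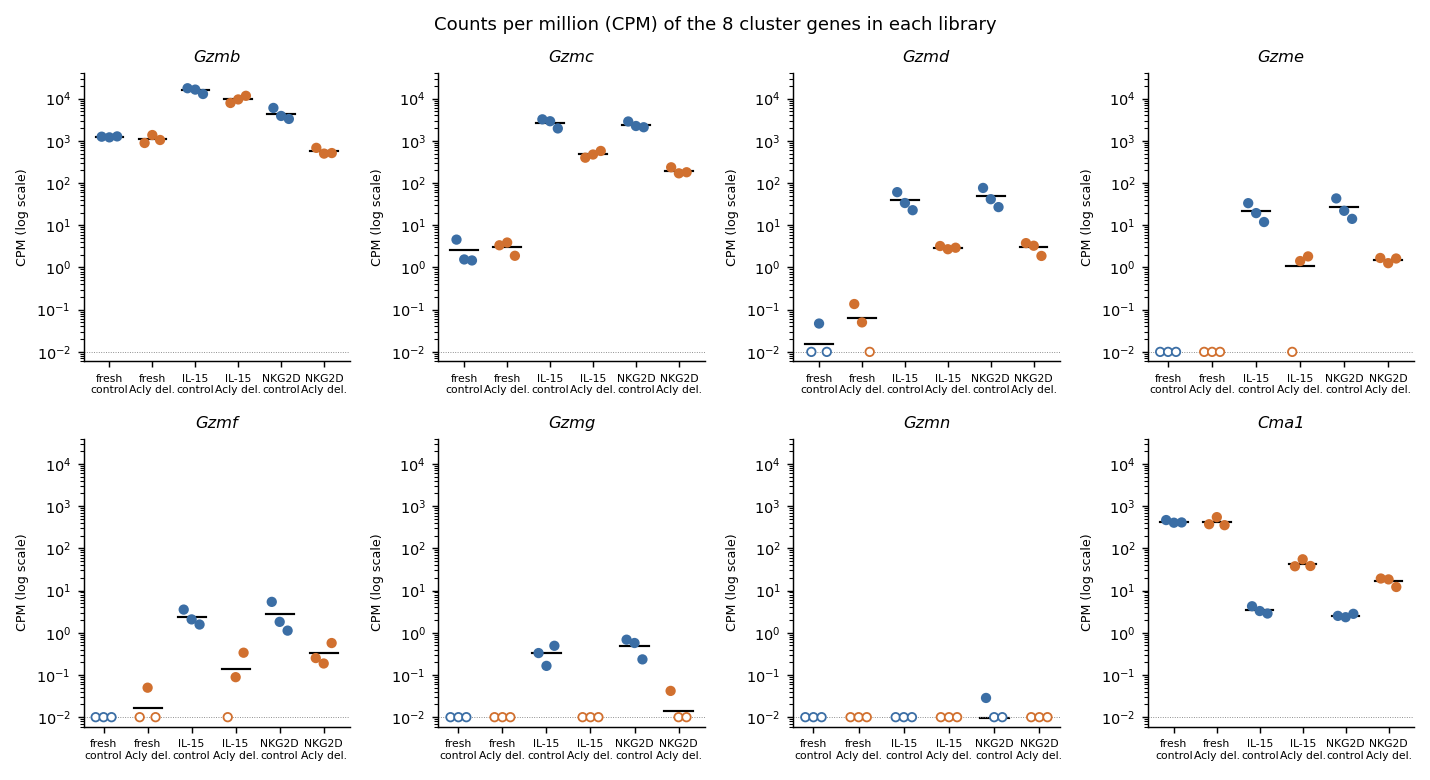
CPM of each of the 8 genes (log axis) in every library, with wild-type control libraries in blue, Acly knock-out libraries in orange and the group mean as a black line. Open circles on the dotted line are libraries with 0 reads, drawn at 0.01 CPM. Gzmb and Cma1 were expressed in fresh cells, Gzmc was low in fresh cells and high after IL-15, Gzmd to Gzmf became measurable after IL-15, and Cma1 and Gzmc parted between genotypes after IL-15 in opposite directions.

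Loss of Acly was not accompanied by a called change of the cluster in fresh cells. The edgeR test called 0 of the 7 members that passed its filter, where it called 0.0673% of all tested genes. Gzme and Gzmg had 0 reads in every fresh library, and Gzmd and Gzmf had at most 3 in any. The test could therefore hardly call them, and only Gzmb, Gzmc and Cma1 were open to it. Gzmn had 1 read in 1 library of the whole series, replicate 1 of the NKG2D-stimulated wild-type cells, and was not tested. The knock-out minus wild-type difference was −0.18 on the log2 scale for Gzmb (SE 0.214, adjusted p = 0.789), 0.19 for Gzmc (SE 0.379, adjusted p = 0.886) and −0.01 for Cma1 (SE 0.191, adjusted p = 0.996). These 3 genes also stayed uncalled under every alternative setting. At an unadjusted p under 0.05, Gzmb, Gzmc and Cma1 did not pass either, where 1903 of 14864 tested genes did.

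The cluster turned around in wild-type cells that were primed in IL-15. No group was cultured for the same time without IL-15, so IL-15 cannot be told apart from the culture itself. Changes from the fresh state named after priming or IL-15 include the culture, in both genotypes. Gzmb rose from 1247 ± 33.4 to 15634 ± 2457 CPM (SD, n = 3), Gzmc rose from 2.53 ± 1.77 to 2707 ± 658 CPM (SD, n = 3), Gzmd to Gzmg became measurable, and Cma1 fell to under 5 CPM. All 7 tested members were called, 6 higher and Cma1 lower, where 53.7% of all tested genes were called. Gzmd, Gzme, Gzmf and Gzmg passed the filter on low counts only through the stimulated groups. Among them, Gzmf did so mainly and Gzmg only through the wild-type groups. The calls of Gzmd to Gzmg therefore follow in part from how these genes entered the test.

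Gzmb was at 17635, 16376 and 12892 CPM in the primed wild-type libraries, all far above the fresh ones, a rise of 3.65 on the log2 scale (SE 0.238, 12.5-fold, adjusted p = 1.02e-09). Gzmc, whose product belongs to the granzymes of activated killer cells, reached 3234, 2917 and 1969 CPM, a rise of 10.02 (SE 0.438, 1037-fold, adjusted p = 8.80e-12). Gzmd reached 60.9, 33.7 and 22.8 CPM. Its 2648 reads stood against the 1 read of the fresh libraries, a ratio of 2434 with a 95% exact counting interval from 437 to 96188, which covers counting error only. Gzme reached 33.4, 19.4 and 11.9 CPM, at least 156-fold above fresh cells when these are set at the limit of 3 reads per library. Gzmf reached 3.54, 2.07 and 1.57 CPM, at least 17.3-fold higher on the same basis. Gzmg reached only 0.331, 0.164 and 0.492 CPM, at least 2.38-fold higher. The order of the levels within the primed wild-type cells, per kb of exon, was Gzmb at 10888 CPM per kb, Gzmc at 3028, Gzmd at 40.6, Gzme at 23.6, Gzmf at 2.60 and Gzmg at 0.362. The Gzmd and Gzme libraries overlapped.

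Cma1 went the other way. It was at 4.25, 3.27 and 2.86 CPM in primed wild-type libraries, all far below the fresh ones, a log2 difference of −6.96 (SE 0.256, 124.5-fold, adjusted p = 2.15e-12). Among the markers of mast cells and basophils, Fcer1a, Ms4a2, Tpsb2, Mcpt4 and Mrgprb2 had 0 reads in all 18 libraries, Tpsab1 was at or below 0.0159 CPM in every group mean, and Cpa3 was at 0.0516 CPM in fresh wild-type cells, where Cma1 was at 428 ± 34.8 CPM (SD, n = 3). The whole list of 11 summed to 65.8 to 123 CPM in fresh wild type and 163 to 184 in primed wild type, nearly all of it Kit. Of the 4 members of this list that could be tested, Kit, Cpa3 and Mcpt8 rose with priming in wild type and Hdc fell. The summed myeloid list of 8 genes fell with Cma1, from 509 to 606 CPM in fresh to 126 to 165 CPM in primed wild-type cells. Of its 4 tested members Itgam, which NK cells also carry and which made up most of the sum, Csf1r and Lyz2 fell, while Cd68 rose from 12.7 to 56.7 CPM. Lyz2, Mpo, Elane, S100a8 and S100a9 were at 0 after priming in wild type. The part of these genes in the fall of Cma1 was not tested.

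In knock-out cells Gzmb and Gzmc also rose with priming and Cma1 also fell. All 5 calls among the 7 tested members went the same way as in wild type (Gzmb, Gzmc, Gzmd and Gzme higher, Cma1 lower), where 48.7% of all tested genes were called. Gzmb rose from 1103 ± 246 to 9714 ± 1894 CPM (SD, n = 3), a log2 difference of 3.14 (SE 0.232, adjusted p = 5.56e-09). Gzmc rose to 399, 475 and 576 CPM, a log2 difference of 7.34 (SE 0.396, adjusted p = 8.29e-11). Cma1 fell to 37.6, 55.1 and 38.2 CPM, a log2 difference of −3.28 (SE 0.210, 9.74-fold, adjusted p = 7.81e-10). Gzmd reached 3.22, 2.71 and 2.94 CPM and rose by 5.62 from its 4 reads in fresh cells (SE 0.746, adjusted p = 7.98e-06). Without replicate 1 of the fresh knock-out cells this rise was 6.95, and without their replicate 3 it was 4.91. Gzme reached 1.42 and 1.83 CPM in 2 libraries and was at 0 in replicate 1, the shallow library, in which Gzmd had 48.1 estimated reads, so the division of reads between these copies may differ there. Gzmf and Gzmg were not above the 3-read limit on average in either state.

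**Figure D2:**
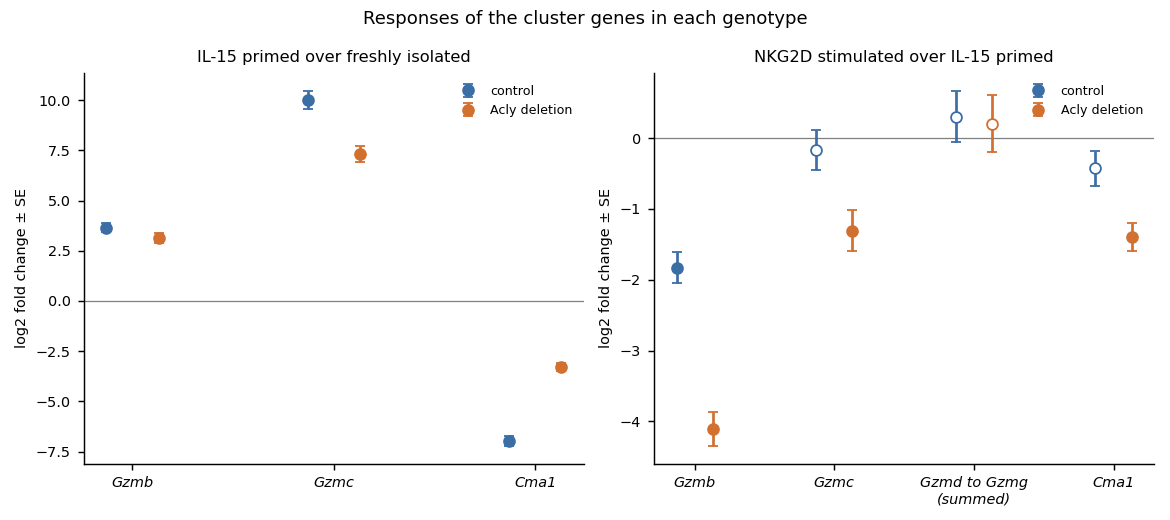
Log2 fold change with its standard error for IL-15 priming (left) and NKG2D stimulation after priming (right) in wild-type control (blue) and Acly knock-out cells (orange). Filled circles passed the edgeR threshold and open circles did not. Gzmc and Cma1 moved less with priming in knock-out cells, and Gzmb fell further with NKG2D in knock-out cells.

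Whether the change with priming differed between the genotypes was tested as a difference of differences. The test called 2 of the 7 tested members, where 10.5% of all tested genes were called. Gzme and Gzmg had no read in any fresh library, so this difference could not be estimated for them. The rise of Gzmc was smaller in knock-out cells, with a log2 difference of −2.68 (SE 0.480, 6.41-fold, adjusted p = 0.00236). The fall of Cma1 was smaller by 3.68 (SE 0.295, 12.8-fold, adjusted p = 3.79e-06). Both calls held under all 19 alternative settings. For Gzmc the difference was −3.47 without replicate 1 of the fresh wild-type cells, the library with the most Gzmc in that group. For Gzmb the difference was −0.51 (SE 0.303) and did not pass (adjusted p = 0.299). The summed Gzmd to Gzmg entry differed by −5.75 with a wide error, since fresh cells gave only 6 reads to these genes (SE 1.99, adjusted p = 0.0727).

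Between primed knock-out and wild-type cells, Gzmb and Gzmc were lower and Cma1 was higher, in a comparison that called 15.5% of all tested genes. Gzmd, Gzme, Gzmf and Gzmg were called lower too. Gzmf had entered the test mainly and Gzmg only through the wild-type groups, and Gzmd and Gzme through stimulated groups of both genotypes. None of these calls is counted as support. This comparison shares its primed libraries with the priming responses above. Gzmb was the least changed, with 7891, 9579 and 11673 CPM in knock-out against 17635, 16376 and 12892 in wild type. Every knock-out library lay below every wild-type one, by a narrow gap, and the difference was −0.69 on the log2 scale (SE 0.215, 1.61-fold, adjusted p = 0.0382). This call was lost in 6 of 13 alternative settings, among them leaving out the shallow replicate 1 of the knock-out cells (−0.54, adjusted p = 0.151). It was also lost without replicate 2 of the knock-out cells (−0.68, adjusted p = 0.0921) and without replicate 1 (−0.58, adjusted p = 0.142) or replicate 2 (−0.64, adjusted p = 0.117) of the wild-type cells.

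Gzmc was lower at a log2 difference of −2.49 (SE 0.305, 5.60-fold, adjusted p = 4.53e-05), with knock-out libraries between 399 and 576 CPM and wild-type libraries between 1969 and 3234 CPM. Gzmd was lower at a log2 difference of −3.73 (SE 0.432, 13.3-fold, adjusted p = 2.66e-05). Gzme was lower at a log2 difference of −4.23 (SE 0.683, 18.8-fold, adjusted p = 0.00115) and Gzmf was lower at a log2 difference of −3.94 (SE 0.871, 15.4-fold, adjusted p = 0.00668). The knock-out libraries of Gzmc, Gzmd, Gzme and Gzmf lay below the wild-type ones, a separation that was not counted over all tested genes. Gzmf had only 0, 2 and 7 reads in the knock-out libraries, a mean below the 3-read limit, and without replicate 3 its difference was −5.39. Gzmg had 0 reads in the knock-out libraries and was at least 2.06-fold lower at the 3-read limit, with an adjusted p of 0.0184 that rose to 0.0517 without replicate 2 of the knock-out cells. Summed over Gzmd to Gzmg, the level was 4.18 ± 0.940 CPM in knock-out and 63.4 ± 31.5 CPM in wild type (SD, n = 3). The log2 difference of this sum was −3.91 (SE 0.421, adjusted p = 1.24e-05). It does not depend on how reads were divided among these genes, but it does depend on reads divided from Gzmc. In primed wild type Gzmc had 53471 to 68501 reads per library, against 1014 to 2079 for the sum.

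Cma1 alone was higher in knock-out cells. Its 37.6, 55.1 and 38.2 CPM stood against 4.25, 3.27 and 2.86 CPM in wild type, without overlap, a difference of 3.67 on the log2 scale (SE 0.229, 12.7-fold, adjusted p = 3.67e-08). Over all settings tried this difference lay between 3.46 and 3.85. In the primed knock-out cells Fcer1a, Ms4a2, Tpsb2, Tpsab1, Mcpt4 and Mrgprb2 were at 0, and the 11 mast cell and basophil markers summed to 97.4 to 101 CPM, below the 163 to 184 CPM of primed wild-type cells. Of the 4 tested, Mcpt8 (2.21 on the log2 scale) and Hdc (1.98) were higher in knock-out, Kit was lower and Cpa3 did not pass (−0.03). Their part in the Cma1 difference was not tested. The summed T cell markers were 32.4 to 39.7 CPM in primed knock-out and 41.6 to 76.0 CPM in primed wild-type libraries. Only Cd3g was called (−1.61, lower) among 5 tested, whose median difference was 0.18. On average Cd3d also lay lower in knock-out (5.67 against 11.2 CPM). Trac (17.4 against 13.1 CPM) and Cd3e (2.03 against 0.573 CPM) lay higher. The myeloid sum was 108 to 140 CPM against 126 to 165 CPM, with Cd68 called lower (−0.53) among 4 tested. The part of either list in the granzyme differences was not tested.

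**Figure D3:**
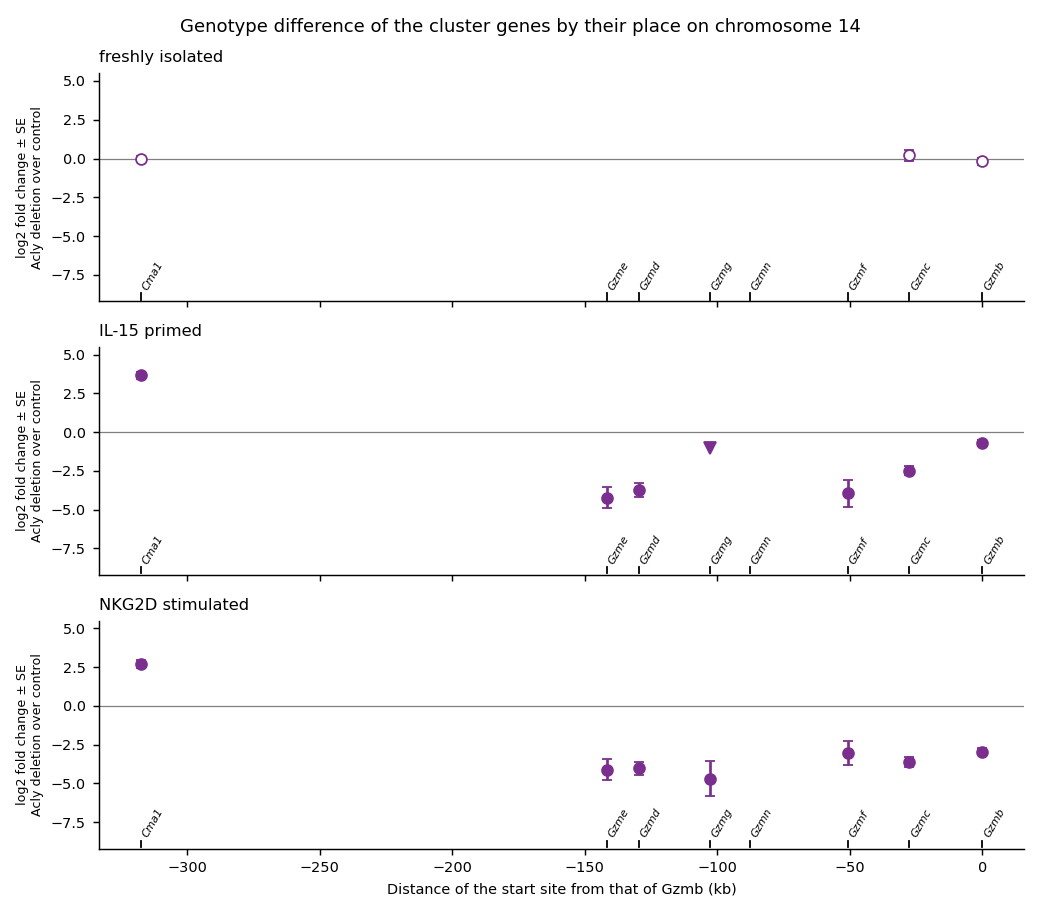
Knock-out minus wild-type log2 fold change with its standard error, plotted at each gene's start site as the distance from the Gzmb start in kb, for fresh, primed and NKG2D-stimulated cells. Filled symbols passed the edgeR threshold, open ones did not, and the triangle is the bound for Gzmg, whose primed knock-out libraries had 0 reads. Genes with no point had too few reads for a fold. Cma1, at the far end from Gzmb, lay above 0 and the granzymes with a point below 0 in both stimulated states. Gzmf entered the test mainly and Gzmg only through the wild-type groups, and Gzmd and Gzme through stimulated groups. The calls of Gzmd to Gzmg are not counted as support.

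Gzmb fell with NKG2D stimulation in wild-type cells, while the other tested granzymes of the cluster did not change past the threshold. The stimulated cells had also been washed and held on a plate for 6 hours. No group was washed and held on an uncoated plate, so NKG2D cannot be told apart from these steps. Changes from the primed state named after NKG2D include them. In wild-type cells Gzmb fell to 6022, 3889.9 and 3306 CPM, all below the primed libraries, a log2 difference of −1.83 (SE 0.221, 3.55-fold, adjusted p = 1.41e-05). It was the 1 member called of 7, where 19.9% of all tested genes were called. Gzmc was at 2877, 2249 and 2101 CPM, inside the range of the primed libraries, and its difference of −0.17 (SE 0.289, adjusted p = 0.735) did not pass. The summed Gzmd to Gzmg entry was at 78.1 ± 43.1 CPM against 63.4 ± 31.5 CPM when primed (SD, n = 3), a difference of 0.30 (SE 0.363, adjusted p = 0.611). Replicate 1 of the stimulated wild-type cells was the highest library for every granzyme of the cluster, with Gzmd at 76.6 CPM against 41.4 and 26.9. Cma1 stayed low, at 2.51, 2.34 and 2.81 CPM, and its difference of −0.43 did not pass (SE 0.244, adjusted p = 0.243).

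In knock-out cells Gzmb fell further, and Gzmc and Cma1 fell as well. The test called 3 of the 7 tested members lower, Gzmb, Gzmc and Cma1, where 35.3% of all tested genes were called. Gzmb fell to 683, 498 and 514 CPM, a log2 difference of −4.10 (SE 0.243, 17.2-fold, adjusted p = 2.27e-09). These levels lay below those of the fresh knock-out libraries, the lowest of which was at 889 CPM. Gzmc fell to 236, 170.0 and 180.3 CPM, a log2 difference of −1.31 (SE 0.294, 2.47-fold, adjusted p = 0.00222). Cma1 fell to 19.3, 18.4 and 12.2 CPM, a log2 difference of −1.40 (SE 0.202, 2.63-fold, adjusted p = 4.04e-05). The summed Gzmd to Gzmg entry was at 4.85 ± 0.841 CPM against 4.18 ± 0.940 CPM when primed (SD, n = 3) and did not pass (0.21, SE 0.406, adjusted p = 0.731). Gzmd itself was at 3.77, 3.27 and 1.88 CPM, overlapping its primed levels.

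The test of the difference between the genotypes' NKG2D responses called 1 of 7 members, where 3.55% of all tested genes were called. Gzmb fell further in knock-out cells, with a difference of −2.28 between the log2 responses (SE 0.306, 4.85-fold, adjusted p = 0.00072). This call held under all 19 alternative settings, with values from −2.45 to −1.98. The same difference was −1.14 for Gzmc (SE 0.410, adjusted p = 0.145) and −0.97 for Cma1 (SE 0.315, adjusted p = 0.105). For the summed Gzmd to Gzmg entry it was −0.10 (SE 0.546, adjusted p = 0.955), and none of these 3 passed. Gzmc and Cma1 each passed in 2 of 19 alternative settings. These were limma voom (−1.11, adjusted p = 0.00086) and no filter (−1.18, adjusted p = 1.27e-06) for Gzmc. For Cma1 they were DESeq2 (−0.99, adjusted p = 0.0363) and no filter (−1.01, adjusted p = 0.000896).

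After NKG2D stimulation Gzmb and Gzmc were lower and Cma1 was higher in knock-out than in wild-type cells, in a comparison that called 18.2% of all tested genes. Gzmd, Gzme, Gzmf and Gzmg were called lower under the same limit on how they had entered the test. Gzmb was 565 ± 102 CPM in knock-out and 4406 ± 1429.5 CPM in wild type (SD, n = 3), lower at a log2 difference of −2.96 (SE 0.230, 7.80-fold, adjusted p = 6.62e-07). Gzmc was lower at a log2 difference of −3.62 (SE 0.321, 12.3-fold, adjusted p = 2.23e-06) and the summed Gzmd to Gzmg entry was lower at a log2 difference of −4.01 (SE 0.418, 16.1-fold, adjusted p = 8.11e-06). Gzmd was lower at a log2 difference of −4.02 (SE 0.433), Gzme lower at a log2 difference of −4.11 (SE 0.663) and Gzmf lower at a log2 difference of −3.03 (SE 0.781). Gzmf was at 0.252, 0.187 and 0.571 CPM in knock-out libraries, and its call was lost without replicate 1 of the wild-type cells (−2.10, adjusted p = 0.111) or replicate 2 of the knock-out cells (−2.77, adjusted p = 0.0585). Gzmg had 41 reads in wild type and 1 in knock-out, a ratio of 37.0 with a 95% exact counting interval from 6.27 to 1495. Its call was lost without replicate 2 (adjusted p = 0.0552) or replicate 3 (adjusted p = 0.0686) of the knock-out cells. Cma1 was higher by 2.70 (SE 0.230, 6.50-fold, adjusted p = 1.68e-06). The libraries of the genotypes did not overlap for Gzmb, Gzmc or Cma1. How many of all tested genes separate in this way was not counted. The summed T cell markers were 26.8 to 27.1 CPM in knock-out and 41.7 to 66.9 CPM in wild type, with Cd3g (−1.36) and Cd3d (−1.19) called lower among 5 tested. The myeloid sum was 278 to 347 CPM in knock-out and 166 to 184 CPM in wild type, with Itgam (0.85) and Cd68 (0.73) called higher among 4 tested. The 11 mast cell and basophil markers summed to 263 to 345 CPM in knock-out and 290 to 460 CPM in wild type, with 0 of 4 tested called. The 6 ILC1 markers summed to 343 to 390 CPM in knock-out and 264 to 441 CPM in wild type, with 1 called lower among 6 tested. The part of these lists in the differences was not tested.

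The order of the 6 groups was thus not the same for any of the 3 main genes. Gzmb was highest in primed wild type, followed by primed knock-out, stimulated wild type, the fresh groups, which were intermixed, and stimulated knock-out. Gzmc was highest in primed and stimulated wild type, which overlapped, followed by primed knock-out, stimulated knock-out and the fresh groups, which were intermixed. Cma1 was highest in the fresh groups, which were intermixed, followed by primed knock-out, stimulated knock-out, primed wild type and stimulated wild type. The libraries of the last 2 groups did not overlap, but their difference did not pass the test.

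Ratios within a library do not depend on its depth or scaling, and they show how far the make-up of the cluster shifted. Per kb of exon, Cma1 made up 31.1 ± 1.59% of the cluster's CPM in fresh wild type and 33.5 ± 2.48% in fresh knock-out, and Gzmb nearly all of the rest (68.7 ± 1.74% and 66.2 ± 2.58%, SD, n = 3). In primed wild type Gzmb made up 78.1 ± 1.73% and Gzmc 21.5 ± 1.61%. In primed knock-out Gzmb made up 92.0 ± 0.179% and Gzmc 7.36 ± 0.0831%. After NKG2D, Gzmc made up 46.7 ± 3.74% in wild type and 34.6 ± 0.538% in knock-out, where Cma1 made up 2.42 ± 0.546% against 0.0420 ± 0.0122% in wild type. The Cma1 share in knock-out was higher than the 0.557% of the primed state although its CPM fell 2.63-fold, while the CPM of Gzmb fell 17.2-fold. In wild-type cells after NKG2D, Gzmc was therefore almost level with Gzmb per length, at 90.6 ± 12.8 per 100 of Gzmb.

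**Figure D4:**
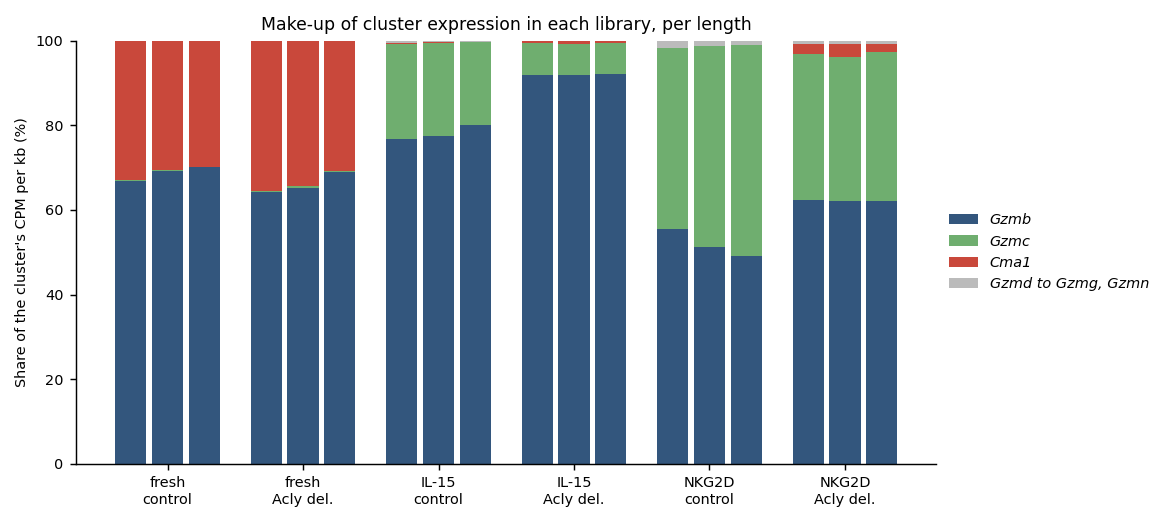
Share of the cluster's CPM per kb of exon taken by Gzmb, Gzmc, Cma1 and the other 5 genes, as stacked bars with 1 bar for each library. Cma1 made up 31.1% and 33.5% on average in fresh cells and under 3% on average in every stimulated group, and the Gzmc share was smaller in knock-out than in wild-type cells in both stimulated states.

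The ratio of Gzmc to Gzmb was 3.43-fold lower in primed knock-out than in primed wild-type cells (−1.78 on the log2 scale) and 1.62-fold lower after NKG2D (−0.69). The ratio of Cma1 to Gzmb was 20.3-fold higher in primed knock-out cells and 48.7-fold higher after NKG2D. In each of these 4 comparisons the libraries of the genotypes did not overlap, and a two-sided exact permutation test gave p = 0.1, the smallest that 3 libraries against 3 can give. In fresh cells the 2 ratios overlapped between genotypes (exact permutation p = 0.3 and 0.2). The ratio of Gzmc to Gzmb rose with NKG2D 3.28-fold in wild type and 6.95-fold in knock-out, each without overlap and with the same smallest p.

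Measured against all reads, the 8 genes together took 0.172 ± 0.00902% of the library in fresh wild type and 0.148 ± 0.0332% in fresh knock-out. They took 1.71 ± 0.271% in primed wild type and 0.994 ± 0.161% in primed knock-out, and 0.700 ± 0.196% and 0.0858 ± 0.0116% after NKG2D (SD, n = 3).

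Between Cma1 and Gzme lie 7 further protease genes, and only Mcpt8, a basophil-type protease gene, reached a measurable level. It had between 0 and 3 reads per fresh library, 2.97, 2.73 and 2.40 CPM in primed wild type and 10.3, 14.4 and 12.8 CPM in primed knock-out. The primed genotypes did not overlap, and the difference was 2.21 on the log2 scale (SE 0.382, 4.64-fold, adjusted p = 0.000841). Mcpt8 thus rose with priming where Cma1 fell, and was higher in primed knock-out cells as Cma1 was. After NKG2D it was at 1.66, 1.34 and 1.36 CPM in wild type and 1.55, 1.96 and 1.02 CPM in knock-out, intermixed, so the fall from the primed state was larger in knock-out cells (difference of responses −2.16, SE 0.545, adjusted p = 0.0358). Mcpt1, Mcpt2, Mcpt4 and Mcpt9 had 0 reads in all libraries. Ctsg reached at most 0.142 CPM and Cma2 at most 0.0907 CPM in any library.

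Granule pathway genes outside the cluster were called in both directions. A list of 27 other granule genes held the remaining granzymes, perforin, the storage proteoglycan serglycin, activating cathepsins, protease inhibitors and the release machinery, and 26 of them could be tested. In fresh cells 0 of 26 were called between genotypes (median difference 0.12, against 0.01 over all tested genes). In primed cells 3 were higher and 10 lower in knock-out (median −0.15 against −0.02), where 15.5% of all tested genes were called, and after NKG2D 2 were higher and 11 lower (median −0.31 against 0.03), where 18.2% were called. Priming raised 8 and lowered 9 in wild type and raised 5 and lowered 9 in knock-out, where 53.7% and 48.7% of all tested genes were called, shares near those of the list.

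The granzyme genes outside the cluster differed from each other. Gzma, the tryptase granzyme, was at 10774 ± 1369.7 CPM in primed wild type and 8857 ± 1499.6 CPM in primed knock-out (SD, n = 3), a difference of −0.28 that did not pass (adjusted p = 0.212), and was lower at a log2 difference of −0.61 after NKG2D (adjusted p = 0.00890). Gzmm, whose product cuts after methionine and leucine, was at 1.52 ± 0.470 CPM in primed wild type and 35.3 ± 4.14 CPM in primed knock-out (SD, n = 3), higher by 4.56 (adjusted p = 3.67e-08). It fell by 3.51 with priming in wild type (adjusted p = 1.23e-08), as Cma1 did. In knock-out it did not change past the threshold with priming (0.24, adjusted p = 0.410), where Cma1 fell. Gzmk was higher in knock-out by 1.18 when primed and by 1.77 after NKG2D (adjusted p = 0.00303 and 7.94e-05).

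Among the partners of Gzmb in the granule, some were lower in knock-out cells as Gzmb was. Prf1, the gene of perforin, was at 2854 ± 278 CPM in primed wild type and 1370.2 ± 200.4 CPM in primed knock-out (SD, n = 3), lower at a log2 difference of −1.06 (adjusted p = 0.00140), and after NKG2D it was lower at a log2 difference of −1.65 (adjusted p = 3.26e-05). Prf1 did not rise past the threshold with priming in wild type (0.08, adjusted p = 0.752) and fell by 1.06 in knock-out (adjusted p = 0.000219), where Gzmb rose. Srgn, the gene of serglycin, was lower at log2 differences of −0.47 and −0.66 (adjusted p = 0.00896 and 0.000598). Srgn rose with NKG2D by 0.74 in wild type and 0.54 in knock-out (adjusted p = 0.000130 and 0.00115), where Gzmb fell. Ctsc, whose product cathepsin C removes the propeptide that keeps granzymes inactive, was lower at log2 differences of −0.35 and −0.32 (adjusted p = 0.0219 and 0.0312). Serpinb9, which encodes an inhibitor that shields the cell from its own granzyme B, did not differ past the threshold in primed cells (0.17, adjusted p = 0.552). After NKG2D it was lower at a log2 difference of −1.58 in knock-out (adjusted p = 2.24e-05), and its fall with NKG2D was larger in knock-out, with a difference of −1.75 (adjusted p = 0.000997), as was that of Gzmb.

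Of 16 regulators of NK effector genes, all tested, 0 were called in fresh cells, 1 was higher and 3 lower in primed knock-out cells, and 1 was higher and 4 lower after NKG2D. Of all tested genes, 0.0673%, 15.5% and 18.2% were called in these 3 comparisons. T-bet, encoded by Tbx21 and known to act on Gzmb, fell by 2.06 with priming in wild type and fell by 1.62 in knock-out (adjusted p = 5.37e-10 and 1.14e-08), while Gzmb rose. It did not differ past the threshold between genotypes when primed (0.31, adjusted p = 0.101) or after NKG2D (−0.15, adjusted p = 0.439). Eomes was higher in knock-out by 0.51 after NKG2D (adjusted p = 0.00722). Prdm1, which encodes the repressor Blimp-1, was lower at a log2 difference of −0.83 in primed knock-out cells (adjusted p = 0.00753). After NKG2D it did not differ past the threshold (0.005, adjusted p = 0.992). The part of these regulators in the granzyme differences was not tested.

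Across the 18 libraries, the genes whose log2 CPM followed that of a member most closely are given as a description, since all libraries share the same 6 groups. Over 7987 genes, the 5 most like Gzmb were Cct6a (Pearson r = 0.976), Eprs, Nop16, Rrp15 and Ppan (0.968), genes of protein folding, tRNA charging and ribosome assembly. The 5 most like the summed Gzmc to Gzmn entry were Plac8 (0.993), Plscr1, Ifitm2, Avil and Coq3 (0.985). The 5 most like Cma1 were Klf2 (0.989), Lysmd3, Prdm2, Prex1 and Rab31 (0.976). Klf2, a transcription factor of resting lymphocytes, was at 273 CPM in fresh wild type, 2.69 in primed wild type and 34.1 in primed knock-out.

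The authors' deposited table of the fresh comparison gave log2 differences of −0.19 for Gzmb, 0.55 for Gzmc and 0.01 for Cma1. For primed cells the authors' deposited table gave −0.65 for Gzmb with an adjusted p of 0.00134, −2.49 for Gzmc, −3.87 for Gzmd and 3.75 for Cma1. Gzmg, at −3.65, had an adjusted p of 0.0966 in the authors' deposited table for primed cells. For stimulated cells the authors' deposited table gave −2.97 for Gzmb, −3.68 for Gzmc, −4.26 for Gzmd and 2.51 for Cma1.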

How the data were processed

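RNA libraries (SMARTer kit, per the labels' protocols) were mapped to mm10, and bcl2fastq, DRAGEN and edgeR were used, per the submitters' processing notes; their versions, the annotation and the strand setting: not given in the sources used here. From these the authors deposited 1 table of expected counts (estimated reads for each gene), and 30.0% of its values above 0 are not whole; the design had assumed whole counts, so they were rounded for testing. The reads carry no molecular barcodes, so intervals and limits cover counting error only. Further tables deposited by the authors list, for 3 comparisons, a log2 fold change, a p-value and an adjusted p-value; 54 per-sample columns in these tables were not used.

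All 18 libraries were fitted together in edgeR 4.0.16 (R 4.3.3): TMM scaling, its default expression filter (14864 genes), 1 mean per group, quasi-likelihood test, Benjamini-Hochberg adjustment over all tested genes, threshold 0.05. Responses were compared between genotypes as a difference of differences. CPM values use the same scaling, and SE is that of the log2 fold change. Nothing in the labels ties the replicates of a group to separate animals. The p-values therefore cover only the spread between these libraries, which may be technical. The test was checked on simulated counts. Alternatives were RLE scaling, DESeq2 1.42.0, limma 3.58.1 voom with quality weights, no filter, at least 10 CPM in at least 3 libraries, the compared groups alone, a replicate block, leaving out each library, and summed copies.

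The members, gene lists and tests were chosen with earlier results of these data known. Named were all 8 members, the other granzymes, Prf1, Srgn, Ctsc, Serpinb9, Tbx21, Eomes, Prdm1, the other proteases of the locus with a read, the 5 genes most like Gzmb, the summed Gzmc to Gzmn entry and Cma1 among genes whose mean log2 CPM was 3 or more; marker genes named beside results came after their values were seen. Transcript and promoter identities came from global pairwise alignment without end-gap cost of GENCODE M21 transcripts and RefSeq promoter windows.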

Additional observations from a re-analysis of the deposited data

Results flagged for a closer look

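For 3 genes the response to a stimulation differed between the genotypes, by edgeR's test of the difference between responses. The rise of Gzmc with priming, which includes the culture, was smaller in knock-out cells by a log2 difference of −2.68 (adjusted p = 0.00236). The fall of Cma1 with priming was smaller, by a log2 difference of 3.68 (adjusted p = 3.79e-06). The fall of Gzmb after NKG2D stimulation was larger in knock-out cells, by a log2 difference of −2.28 (adjusted p = 0.00072).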

How the results depend on the processing

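Of the recomputed fold changes of members and summed entries, 761 kept their direction and side of the threshold, 13 newly passed, 11 no longer passed and 18 changed sign. Member counts stayed within 1.5 times in 124 cases and moved further in 5. With voom, 2 members were called for NKG2D in wild type, 4 for the priming difference and 2 for the NKG2D difference. The last count was 2 with DESeq2 and 3 without a filter. The small fresh difference of Cma1 changed sign with voom (0.033) and without a filter (0.0076), and ranged from −0.25 to 0.088 with single libraries left out. Fresh Gzmc then ranged from −0.058 to 0.98 and summed Gzmc to Gzmn from −0.033 to 0.996.

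For summed Gzmd to Gzmg, voom gave −0.030 for NKG2D in knock-out, −0.043 in wild type and 0.013 for their difference. Leaving out single libraries gave −0.23 to 0.75 in wild type (the lowest without replicate 1 of the stimulated cells) and −0.56 to 0.43 for the difference. Its priming difference newly passed with DESeq2 (−6.00), without a filter (−5.73) and with the compared groups alone (−5.72), and ranged from −7.69 to −4.98 with single libraries left out. Summed Gzmc to Gzmn newly passed with voom for NKG2D in wild type (−0.34), and for the NKG2D difference with voom (−1.10) and without a filter (−1.16). The cause was not tested.

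With a replicate block within each genotype, the summed Gzmd to Gzmg priming difference was −5.83 and newly passed, and all-gene counts were 972 for the priming and 250 for the NKG2D difference. With a replicate block by number across genotypes, the primed Gzmb difference was −0.67 (adjusted p = 0.0598). Same-numbered libraries of a genotype deviated together with correlations from −0.127 to 0.131, and different-numbered ones with correlations from −0.184 to 0.200. Whether the numbers pair libraries was not tested. With the compared groups alone the primed Gzmb difference was −0.66 (adjusted p = 0.0557).

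The number of all genes called moved more. For fresh cells it was 10, against 137 with DESeq2, 1900 with voom, 564 without a filter, 780 with the compared groups alone, and as few as 5 with a library left out. Voom called 4214 for primed, 6256 for NKG2D-stimulated cells, 5295 for NKG2D in wild type, 4157 for the priming difference and 2114 for the NKG2D difference. The compared groups alone gave 1128 for primed cells, 3450 for NKG2D in knock-out and 203 for the NKG2D difference. The last was 1016 with DESeq2 and 887 without a filter. At this depth a gene with 0 reads in a library could still lie below 0.0856 to 0.201 CPM.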
